A study of Mus musculus with 6 samples.

Results

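The replication-dependent histone genes are the clustered genes that supply histone protein to newly copied DNA. They were taken here as the protein-coding rows of the expression table whose symbols begin with Hist1h, Hist2h, Hist3h or Hist4h. This rule found 57 of 30315 genes, of which 6 encoded the linker histone H1, 12 encoded H2A, 16 encoded H2B, 10 encoded H3 and 13 encoded H4. The mouse annotation GENCODE M21 lists 67 protein-coding genes with such symbols. Sums and shares by type and cluster below therefore cover the 57 and not the whole family. The set was selected on measured values, because it had been seen to be higher while division genes were lower in the same comparison, so its difference between the groups is given below as a description and not as a test.

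The libraries came from primary renal tubular epithelial cells (TECs) of C57BL/6 mice. In the siSox9 group (n = 3) the cells received an siRNA against Sox9, the gene of a transcription factor that is induced in injured tubules, and in the siNC group (n = 3) they received a control siRNA. Cells of both groups were transfected 12 h before hypoxia/reoxygenation (H/R), a culture model of ischaemic injury in which they spent 6 h at 1% O2 in medium without glucose and then 18 h in complete medium under normal conditions. All 6 libraries were therefore injured, no uninjured library was analysed here, and the libraries were not said to come from separate animals, so the spread within a group may be technical.

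Histone protein packs DNA: H2A, H2B, H3 and H4 form the nucleosome core, and H1 binds the DNA that links one core to the next. The clustered genes are transcribed mainly in S phase, carry no introns in most cases, and give mRNA that ends in a conserved stem-loop in place of a poly(A) tail. Stem-loop binding protein (Slbp) binds that stem-loop, and the mRNA is destroyed when DNA synthesis stops. Some clustered genes can also give a longer, polyadenylated mRNA in cells that leave the cell cycle. Replication-independent variants such as H2A.Z and H3.3 come from genes elsewhere, with introns and poly(A) tails.

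The stem-loop is shown first because it is the feature that separates these mRNAs from other mRNAs. A 16-base pattern (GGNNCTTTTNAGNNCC, transcript strand only) was searched in the 3′ UTR of the longest GENCODE M21 coding transcript of each gene. It was present in 39 of the 57 genes, against 16 of 20898 other protein-coding genes with a 3′ UTR (0.0766%). Only 47 of the 57 had an annotated 3′ UTR long enough to hold it. Examples follow, 5′ to 3′ as DNA, with the 4-base loop in capitals and the paired stem in lower case, for the 2 members with the largest difference on the log2(FPKM + 1) scale, the most abundant member, an H4 gene, another H4 form and the member called lower:
Hist1h3b (chr13:23752820-23752835, plus strand): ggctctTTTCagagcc
Hist1h2ab (chr13:23751572-23751587, plus strand): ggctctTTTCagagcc
Hist1h1c (chr13:23739512-23739527, plus strand): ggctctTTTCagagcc
Hist1h4h (chr13:23531458-23531473, plus strand): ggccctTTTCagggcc
Hist1h4i (chr13:22040966-22040981, minus strand): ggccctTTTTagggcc
Hist3h2ba (chr11:58949349-58949364, plus strand): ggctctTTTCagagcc
The form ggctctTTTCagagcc was the most frequent, in 21 genes, and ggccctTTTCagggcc came next, in 7. The stem-loop lay 21 to 54 bases after the stop codon, with a median of 31. The annotated transcript ended within 100 bases of the stem-loop in 18 of the 39 genes, as in Hist1h2ab (11 bases), Hist1h4h (46 bases) and Hist1h3b (51 bases). It ran more than 300 bases past it in 17, as in Hist1h1c (840 bases), Hist1h1e (1153 bases) and Hist1h1d (4884 bases). Hist1h2bc and Hist2h2be, with annotated 3′ UTRs of 742 and 2192 bases, held no match to these letters.

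Promoters are shown for 5 of these 6 genes, without Hist1h4i, because the 2 members with the largest difference on that scale are neighbours. RefSeq held a promoter for 52 of the 57, on GRCm38.p6. The window from 250 bases before to 50 bases after the start was searched on both strands. A CCAAT box (CCAAT or ATTGG) was present in 43 of 52, which were all 6 H1, all 12 H2A, all 14 H2B and all 8 H3 genes but 3 of 12 H4 genes, against 41.0% of 26973 other genes. A TATA box (TATAAA or TTTATA) was present in 30 of 52, against 15.6% of the others. The octamer bound by POU-domain factors (ATTTGCAT or ATGCAAAT) was present in 10, of which 6 were H2A and 4 H2B genes, against 1.93% of the others. An E2F site core (TTTCCCGC or GCGGGAAA) was present in 1, against 1.23%. The 150 bases before the RefSeq start of 4 members that were higher after Sox9 knockdown and 1 that was called lower read as follows, with every CCAAT box, TATA box and octamer in capitals:
Hist1h3b (chr13:23752195-23752344, plus strand): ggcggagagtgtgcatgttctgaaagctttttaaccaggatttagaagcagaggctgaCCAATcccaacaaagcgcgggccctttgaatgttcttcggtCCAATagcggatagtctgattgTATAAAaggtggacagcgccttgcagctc
Hist1h2ab (chr13:23750938-23751087, plus strand): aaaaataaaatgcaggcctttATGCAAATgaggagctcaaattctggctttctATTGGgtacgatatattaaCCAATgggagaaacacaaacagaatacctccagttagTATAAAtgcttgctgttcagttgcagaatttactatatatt
Hist1h1c (chr13:23738657-23738806, plus strand): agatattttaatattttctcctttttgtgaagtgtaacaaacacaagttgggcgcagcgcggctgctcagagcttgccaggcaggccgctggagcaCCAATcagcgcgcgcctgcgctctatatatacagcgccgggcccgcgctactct
Hist1h4h (chr13:23530894-23531043, plus strand): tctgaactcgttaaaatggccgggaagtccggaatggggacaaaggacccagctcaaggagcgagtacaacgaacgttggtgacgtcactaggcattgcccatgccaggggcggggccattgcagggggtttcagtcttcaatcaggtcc
Hist3h2ba (chr11:58948761-58948910, plus strand): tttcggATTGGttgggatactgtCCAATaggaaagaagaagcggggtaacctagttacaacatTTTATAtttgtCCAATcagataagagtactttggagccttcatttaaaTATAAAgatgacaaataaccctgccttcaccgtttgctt
Hist1h3b held a TATA box and 2 CCAAT boxes in this window, Hist1h2ab added an octamer, Hist1h1c had a CCAAT box without these TATA letters, and Hist1h4h had none of these motifs. Hist3h2ba, the member called lower, held CCAAT boxes and TATA letters as well.

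Sox9 itself was measured at 25.7, 26.5 and 25.6 FPKM (fragments scaled to transcript length and library size) in the siNC libraries and at 8.93, 8.61 and 9.07 FPKM in the siSox9 libraries. It fell to 34.2% of the siNC mean, with a log2 fold change of -1.45 ± 0.03 (SE, n = 3 per group) and an adjusted p of 7.03e-06 in limma on log2(FPKM + 1). The 6 libraries held 23893197 to 25725741 recovered reads. The 6 tubule epithelial markers summed to 3592 to 3794 FPKM in siNC and 3755 to 3913 FPKM in siSox9, led by Krt8. Of these, 5 did not pass the test, and Cdh16 rose from 101 to 130 FPKM (log2 fold change 0.36 ± 0.03, SE, adjusted p = 0.000307, limma). The proximal tubule markers were near 0 (5 of 6 at most at 0.52 FPKM), except Lrp2 at 2.06 to 2.58 FPKM, and so were those of the distal nephron and collecting duct (at most 0.13 FPKM). The summed level of 5 leukocyte markers was 92.2 to 98.7 FPKM in siNC and 103 to 114 FPKM in siSox9, led by Lyz2. Lyz2 rose from 71.9 to 83.4 FPKM (log2 fold change 0.21 ± 0.05, SE, adjusted p = 0.0175, limma). The other 3 leukocyte markers tested did not pass. The sums were 3.15 to 4.01 FPKM and 2.76 to 2.99 FPKM for 4 endothelial markers, and 7.72 to 8.79 FPKM and 6.24 to 7.76 FPKM for 5 fibroblast markers. The part of these cells in the results was not tested. Across all 12009 genes tested (average of 1 FPKM or more), 1532 rose (12.8%), 2118 fell (17.6%), and the median log2 fold change was -0.01. With every library centred on its median gene, 1959 rose and 1765 fell, which moved the share that rose among the genes called from 42.0% to 52.6%.

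The summed level of the 57 histone genes was 170, 189 and 175 FPKM in the siNC libraries and 244, 250 and 248 FPKM in the siSox9 libraries. Every siSox9 library was above every siNC library. The means were 178 ± 9.60 FPKM and 247 ± 2.95 FPKM (SD, n = 3 each), a ratio of 1.39, and the ratio was 1.42 both as TPM and with each library divided by its median gene. In bulk RNA, a larger share of cells with histone mRNA and more histone mRNA per cell cannot be told apart. The 2 most abundant members, Hist1h1c and Hist1h2bc, made up 68.4% of the siNC sum, and the other 55 genes together had a ratio of 1.62.

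The level of the set was unevenly spread over its members. Only 3 genes averaged 10 FPKM or more, 17 had a mean from 1 to 10 FPKM, 26 from 0.1 to 1 FPKM and 11 were under 0.1 FPKM. The 20 genes that averaged 1 FPKM or more entered the fit over all genes. Of these, Hist1h4k was nearest above the minimum (1.04 FPKM) and Hist1h2be was nearest below it (0.975 FPKM). Hist1h2bb passed only through its siSox9 values, and Hist3h2ba and Hist1h4k only through their siNC values. In that fit 7 of the 20 were called higher and 1 lower at an adjusted p under 0.05, beside 12.8% and 17.6% of all genes tested. Over all 57 members, the groups did not overlap in 17 that were higher and 1 that was lower with siSox9, beside 11.0% and 15.5% of the 28122 genes above 0. Both counts come from the comparison that chose the set, so nothing is read from them.

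**Figure D1:**
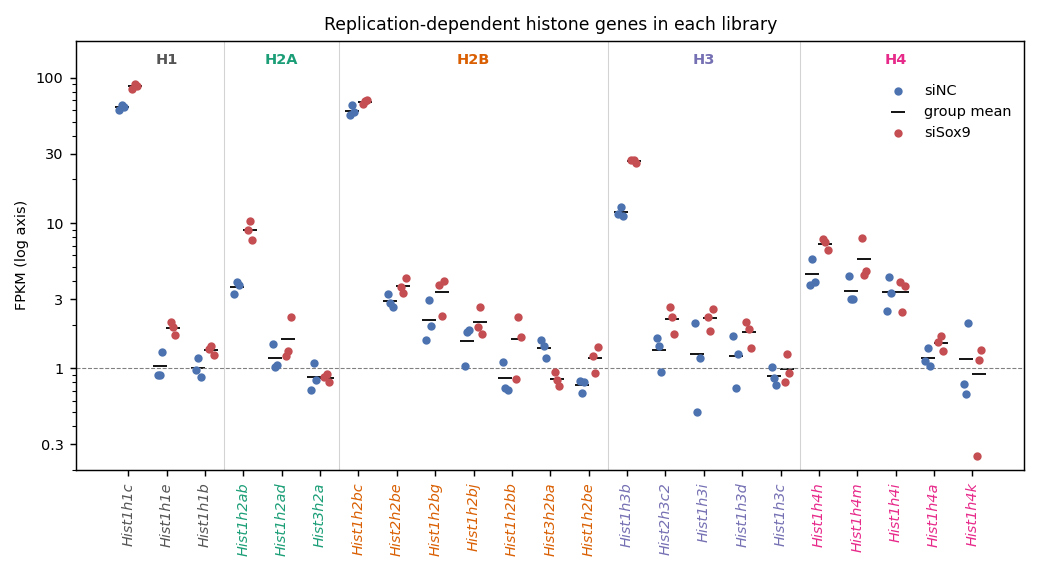
FPKM on a log axis for the 20 histone genes averaging 1 FPKM or more and the 3 nearest below it, grouped by histone type, with 1 point per library, black dashes for group means and a dashed line at 1 FPKM. Hist1h3b and Hist1h2ab show the widest gaps between the siSox9 points (red) and the siNC points (blue), and the points of Hist1h4i and Hist1h4k overlap.

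Linker histone genes were dominated by Hist1h1c, an H1 gene that many non-dividing cells also express (chr13:23738808-23740367, 1 exon). Its level was 60.4, 64.5 and 62.7 FPKM in siNC and 83.9, 89.9 and 87.8 FPKM in siSox9. The groups did not overlap, and the ratio of their means was 1.39, from 7203 and 10204 reads. Hist1h1e was at 0.897, 0.901 and 1.29 FPKM in siNC and at 2.09, 1.92 and 1.69 FPKM in siSox9, a ratio of 1.85 without overlap. Its annotation overlaps Hist1h2be on the same strand, so reads in the shared part cannot be assigned to either. Hist1h1b was at 0.976, 1.17 and 0.867 FPKM in siNC and at 1.36, 1.43 and 1.24 FPKM in siSox9, so all its siSox9 libraries were higher as well. Hist1h1d and Hist1h1a were at means of 0.529 and 0.438 FPKM in siNC and 0.907 and 0.796 FPKM in siSox9, and the testis-specific Hist1h1t had 7 reads in all libraries together. Summed over the 6 H1 genes, the level was 65.6 ± 1.84 FPKM in siNC and 92.2 ± 2.98 FPKM in siSox9 (SD, n = 3 each), a ratio of 1.41.

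The H3 genes had the largest ratio of summed levels, 1.97, from 18.7 ± 1.33 FPKM in siNC to 36.7 ± 0.83 FPKM in siSox9. Hist1h3b, at chr13:23752267-23752886, carried most of it. It was at 11.5, 12.9 and 11.2 FPKM in siNC and at 27.2, 27.2 and 26.0 FPKM in siSox9. The spread within each group was small beside the gap between them, with a log2 fold change of 1.11 ± 0.05 (SE). Hist2h3c2, in the cluster on chromosome 3, was at 1.62, 1.42 and 0.947 FPKM in siNC and at 2.63, 2.24 and 1.72 FPKM in siSox9. Its groups did not overlap either. Hist1h3i and Hist1h3d had means of 1.25 and 1.22 FPKM in siNC and 2.21 and 1.77 FPKM in siSox9, with overlapping libraries, and Hist1h3c, just under 1 FPKM, had 0.881 and 0.994 FPKM.

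Among the 57 genes, those for H2A were the least abundant type, and Hist1h2ab (chr13:23751126-23751598) was the most abundant of them. It ends 668 bases before Hist1h3b on the same strand. Hist1h2ab was at 3.24, 3.94 and 3.74 FPKM in siNC and at 8.96, 10.4 and 7.70 FPKM in siSox9. Its ratio of 2.48 was the largest among the 20 members of at least 1 FPKM, and its log2 fold change was 1.11 ± 0.10 (SE). The next H2A gene, Hist1h2ad, had 1.18 ± 0.26 FPKM in siNC and 1.60 ± 0.58 FPKM in siSox9, with overlapping libraries. Of the other 10 H2A genes, Hist3h2a was highest, at 0.873 ± 0.188 FPKM and 0.862 ± 0.059 FPKM. The annotation of Hist3h2a overlaps Trim17 on the same strand, so reads in the shared part cannot be assigned to either. The H2A sum was 6.77 ± 0.85 FPKM in siNC and 12.5 ± 1.04 FPKM in siSox9, a ratio of 1.85, although 7 of the 12 genes had a lower mean in siSox9, most of them on few reads.

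The H2B genes had the smallest ratio of sums, 1.18, from 70.7 ± 5.31 FPKM to 83.5 ± 3.15 FPKM. Hist1h2bc, a member with 2 exons and a long annotated 3′ UTR, made up 33.3% of the siNC level of all 57 genes. It was at 55.3, 64.5 and 58.1 FPKM in siNC and at 66.2, 69.2 and 70.3 FPKM in siSox9. The groups did not overlap, and the second siNC library lay close below the lowest siSox9 library. Hist2h2be, which shares no 50-base stretch with another gene, was at 3.24, 2.83 and 2.66 FPKM in siNC and at 3.61, 3.32 and 4.20 FPKM in siSox9. Hist1h2bg, Hist1h2bj and Hist1h2bb had higher means in siSox9 (3.35, 2.095 and 1.58 FPKM) than in siNC (2.16, 1.55 and 0.852 FPKM), with overlapping libraries. Hist1h2be was at 0.767 ± 0.076 FPKM in siNC and at 1.18 ± 0.24 FPKM in siSox9 without overlap.

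Hist3h2ba was the only member of the 57 with all siSox9 libraries below all siNC libraries. This H2B gene of the small chromosome 11 cluster (chr11:58948920-58949533) was at 1.57, 1.42 and 1.18 FPKM in siNC and at 0.950, 0.834 and 0.750 FPKM in siSox9. These values rest on 63 reads in siNC and 39 in siSox9. It was the member called lower in the fit, and that call was lost without siNC replicate 2, without siSox9 replicate 2 and without siSox9 replicate 3. Hist3h2ba was called in 8 of the 14 fits run. Of the members called higher, Hist1h2bc was called in 8 and Hist2h3c2 in 6. Hist1h1e and Hist1h4h were called in 13 each, and Hist1h1c, Hist1h3b and Hist1h2ab in all 14. The fit with a minimum of 5 FPKM did not test Hist3h2ba, Hist2h3c2 or Hist1h1e.

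The H4 genes encode the same core histone from many copies. Hist1h4h (chr13:23531050-23531519) was at 3.77, 5.64 and 3.94 FPKM in siNC and at 7.77, 7.37 and 6.50 FPKM in siSox9, a ratio of 1.62 without overlap. Hist1h4m was at 4.31, 2.99 and 3.003 FPKM in siNC and at 7.83, 4.41 and 4.69 FPKM in siSox9, and in both groups the first library was the highest. Its lowest siSox9 value was just above its highest siNC value. Hist1h4i was at 2.49, 4.27 and 3.32 FPKM in siNC and at 3.96, 2.44 and 3.68 FPKM in siSox9, with equal means of 3.36 FPKM. Hist1h4a had 1.18 ± 0.18 FPKM in siNC and 1.50 ± 0.18 FPKM in siSox9. Hist1h4k ranged from 0.664 to 2.06 FPKM in siNC and from 0.249 to 1.34 FPKM in siSox9, on 27 and 21 reads. The H4 sum was 16.4 ± 1.96 FPKM in siNC and 22.3 ± 2.50 FPKM in siSox9, a ratio of 1.36.

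**Figure D2:**
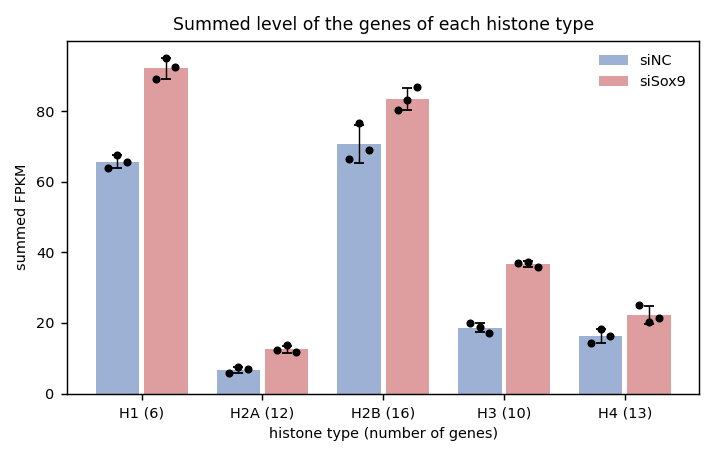
Summed FPKM of the genes of each histone type, with bars for the group mean, error bars for the SD (n = 3) and 1 point per library. All siSox9 libraries lie above all siNC libraries in each type, by a ratio of 1.18 for H2B and 1.97 for H3.

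Because the types differed in their ratios, the make-up of the summed histone FPKM, as these libraries measured it, differed between the groups. H3 genes made up 10.5% of the summed level in siNC and 14.9% in siSox9, and H2A genes 3.79% and 5.06%. H2B genes made up 39.7% and 33.8%. Single genes carried much of this, as Hist1h3b went from 6.66% to 10.8% and Hist1h2bc from 33.3% to 27.7%. H1 genes (36.9% and 37.3%) and H4 genes (9.17% and 9.03%) kept nearly the same share. The ratio of every type stayed above 1 as TPM and with libraries divided by their median gene, from 1.21 for H2B to 2.001 for H3 as TPM.

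By position, the 50 Hist1 genes on chromosome 13 fell into 3 groups separated by more than 100000 bases. The group at chr13:23531050-23764406 held 29 genes, 25 of which had a higher mean in siSox9, beside 46.4% of all genes tested with a log2 fold change above 0. Its summed level was 156 ± 9.29 FPKM in siNC and 220 ± 5.31 FPKM in siSox9, a ratio of 1.41. In the fit 6 of its 11 genes were called higher, beside 12.8% of all genes tested, and nothing is read from either count. The group at chr13:21715763-21837530 held 16 genes, with sums of 10.4 ± 0.87 FPKM and 13.1 ± 1.81 FPKM, a ratio of 1.26. The 5 genes at chr13:22035164-22043676 overlapped between groups, at 5.06 ± 1.24 FPKM and 5.60 ± 0.38 FPKM. The 4 Hist2 genes of the set, on chromosome 3, had sums of 4.84 ± 0.41 FPKM and 6.96 ± 0.29 FPKM without overlap. The 2 Hist3 genes on chromosome 11 were at 2.26 ± 0.25 FPKM in siNC and 1.71 ± 0.14 FPKM in siSox9. All siSox9 libraries were below all siNC libraries, and this sum includes Hist3h2a, whose annotation overlaps Trim17. Hist4h4 on chromosome 6 had 31 reads in all. The test of a difference between clusters was not made, since the same comparison chose the genes.

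**Figure D3:**
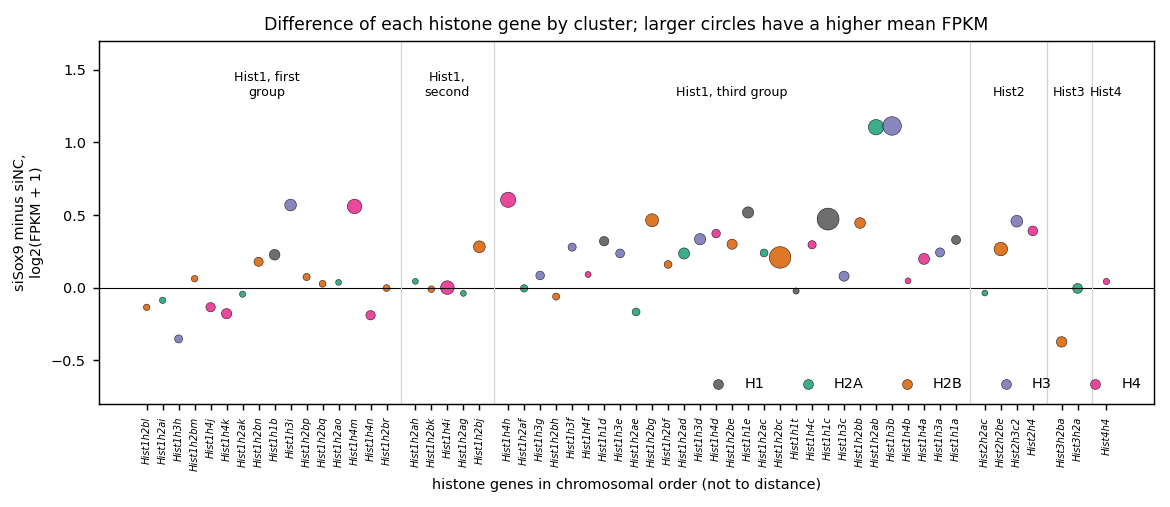
Difference between group means on the log2(FPKM + 1) scale for all 57 histone genes in chromosomal order (evenly spaced, not to distance), coloured by type, with circle size rising with mean FPKM. Neighbouring Hist1h2ab and Hist1h3b stand highest at 1.11 each, most circles of the third Hist1 group lie above 0, and Hist3h2ba lies at -0.37.

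The 37 genes under 1 FPKM were measured on few reads. Their summed level was 11.3 ± 1.26 FPKM in siNC and 14.3 ± 1.17 FPKM in siSox9, a ratio of 1.27, and 24 had a higher and 13 a lower mean in siSox9. Hist2h4 was the highest of those not yet named, at 0.371, 0.610 and 0.741 FPKM in siNC and at 1.03, 1.11 and 1.03 FPKM in siSox9. Hist1h1d, Hist1h2ac, Hist1h3f, Hist1h4c and Hist1h4d also did not overlap between groups, each with a higher siSox9 mean. There were 7 genes with 3 reads or fewer over all 6 libraries, and at that depth no difference could be detected. Among the 23 genes with at least 100 reads over the 6 libraries, 20 had a higher mean in siSox9 and 3 a lower one, with ratios from 0.607 to 2.48. Over all genes tested, 46.4% had a log2 fold change above 0. This comparison chose the set, so nothing is read from the counts of higher and lower means.

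Sharing of sequence limits how far reads can be assigned to 1 gene. At least 50% of the 50-base stretches of the transcript were found in another gene for 26 of the 57, for example 89.8% in Hist1h4m and 87.6% in Hist1h3i, while the share was 60.4% in Hist1h3b, 58.0% in Hist1h2ab, 8.54% in Hist1h1c and 0% in Hist2h2be and Hist1h1b. The sum over the 31 genes under that share was 149 ± 9.43 FPKM in siNC and 193 ± 3.59 FPKM in siSox9, a ratio of 1.30. Over the other 26 it was 29.4 ± 0.39 FPKM and 54.5 ± 1.17 FPKM, a ratio of 1.85. Hist1h1c and Hist1h2bc led the first sum, at 62.6 and 59.3 FPKM in siNC. Hist1h3b and Hist1h2ab, not far over 50%, led the other. They went from 11.9 and 3.64 FPKM in siNC to 26.8 and 9.02 FPKM in siSox9. The ratios therefore rest largely on these genes, and a difference by shared sequence was not tested. How reads that match several members were counted is not given in the sources used here.

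How the libraries were enriched for mRNA is not given either, and most of these mRNAs lack a poly(A) tail. Rn7sk and Rpph1, abundant RNAs without a tail that were picked after their values were seen, were at 0.885 to 3.65 FPKM and 0.394 to 2.90 FPKM, and their means were lower in siSox9 (1.95 and 1.48 FPKM) than in siNC (2.49 and 2.16 FPKM). What the enrichment left of the tail-less histone mRNA was not tested. Among genes with a stem-loop, 18 had an annotated end within 100 bases of it, and their sum had a ratio of 1.92. Hist1h3b and Hist1h2ab (ratios of 2.26 and 2.48) led that sum. The sum of the 17 whose end lay more than 300 bases past it, led by Hist1h1c (1.39), had a ratio of 1.39. A higher siSox9 mean was found in 15 of the 18 and in 13 of the 17, beside 46.4% of all genes tested with a log2 fold change above 0. Some of these genes had very few reads, such as Hist1h2ao and Hist1h4b with 1 read each over all libraries. Nothing is read from these counts. The 18 genes without the stem-loop letters, led by Hist1h2bc (1.16), had a ratio of 1.17. Most of these 18 had an annotated 3′ UTR too short to hold the 16-base pattern, such as Hist1h1b, Hist1h3i and Hist1h4k at 0 bases. A missing match therefore does not show that their mRNA lacks a stem-loop, and the 18 are not a class of 3′ end. Each ratio rests largely on the genes that led its sum, and a difference by 3′ end was not tested.

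H2A and H2B genes often share one promoter region and are transcribed away from each other. Among the 52 genes with a RefSeq promoter there were 7 such pairs, with starts 164 to 249 bases apart. The search left out Hist1h2bc and Hist2h2be, which had no RefSeq promoter. Their annotated starts face those of Hist1h2ac and Hist2h2ac on the other strand. Hist1h2bc averaged 64.0 FPKM beside 0.318 FPKM in Hist1h2ac, and Hist2h2be 3.31 FPKM beside 0.0129 FPKM in Hist2h2ac. Levels within the 7 pairs were unequal as well. Hist1h2bg had a mean of 2.75 FPKM over the 6 libraries and its partner Hist1h2ae 0.325 FPKM. Hist1h2bj had 1.82 FPKM and its partner Hist1h2ag 0.0138 FPKM. In the pair of Hist1h2ad and Hist1h2bf the H2A gene was higher, at 1.39 FPKM against 0.304 FPKM. In the 7 pairs a higher siSox9 mean of one gene did not always come with one of its partner. Hist1h2bg went from 2.16 to 3.35 FPKM and Hist1h2ae from 0.406 to 0.245 FPKM.

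Of 20 genes for histone transcription and for processing or decay of the 3′ end of histone mRNA, 19 were tested, 4 fell and 15 did not pass, a share near the 17.6% of all genes tested that fell. The median of the list was -0.04 on the log2 scale, beside -0.01 over all genes tested. No gene of this list rose in limma, and none was higher at an unadjusted p under 0.05 there or in limma voom. Slbp, the stem-loop binding protein, was at 5.18, 4.98 and 5.37 FPKM in siNC and at 4.61, 4.57 and 4.79 FPKM in siSox9. The groups did not overlap, and the log2 fold change of -0.13 ± 0.04 (SE) did not pass, with an adjusted p of 0.0583 in limma. In limma voom, which called 6 genes of this list lower, Slbp passed with an adjusted p of 0.0448. Mif4gd, a partner of Slbp in translation, fell from 12.7, 12.0 and 13.7 FPKM to 8.92, 8.97 and 9.79 FPKM, which is -0.43 ± 0.06 on the log2 scale (SE, adjusted p = 0.00163, limma). Eri1, an exonuclease that trims the stem-loop end, fell by 0.25 on the log2 scale, Casp8ap2, a histone locus body protein, fell by 0.18, and Cstf2, a subunit of the cleavage machinery, fell by 0.17. Npat, the coactivator that concentrates at histone clusters, had means of 8.73 FPKM in siNC and 9.06 FPKM in siSox9 (log2 fold change 0.05 ± 0.05, adjusted p = 0.472, limma). The count of 4 fell to 1 without siNC replicate 2 or without siSox9 replicate 2, and to 2 without siSox9 replicate 1 or replicate 3, and Mif4gd was called in all 14 fits, Cstf2 in 10 of 14, Casp8ap2 in 8 of 13 and Eri1 in 7 of 13.

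Of 15 histone chaperones and importers, the proteins that carry new histones to DNA, 8 genes fell and 7 did not pass, beside 17.6% of all genes tested that fell. The lower division genes were part of why the set was chosen, and genes of this list act in dividing cells or at forks. Its counts and p-values are therefore a description and not an independent test. The median of the list was -0.18 on the log2 scale, beside -0.01 over all genes tested. None rose in limma on log2(FPKM + 1), and none was higher at an unadjusted p under 0.05 there. The same held in limma voom, which tested only 10 of the 15 and not Ipo4. The importin gene Ipo4, at 0.07 ± 0.03 (SE) on the log2 scale, was called higher in limma on median-centred values (adjusted p = 0.0443) and in no other of its 13 fits. Chaf1a, the large subunit of chromatin assembly factor 1, was at 8.52, 8.34 and 8.37 FPKM in siNC and at 5.75, 5.31 and 5.16 FPKM in siSox9. Its log2 fold change was -0.56 ± 0.04 (SE), at an adjusted p of 0.000235 in limma. Asf1b, which hands H3 and H4 to that complex in dividing cells, fell by 0.41. Nasp, which holds the reserve of soluble H3 and H4, went from 12.1, 12.2 and 12.3 FPKM to 9.04, 8.82 and 9.20 FPKM and fell by 0.40. Tonsl and Mms22l, partners that bind newly made H4 at forks, fell by 0.38 and 0.27. Hat1, which acetylates new H4, Chaf1b and Ssrp1, a subunit of the FACT complex, fell by 0.33, 0.24 and 0.18. The call of Hat1 was lost without siNC replicate 2 or 3 and without siSox9 replicate 1, and that of Mms22l without siNC replicate 3. Asf1a, Rbbp4, Rbbp7, Nap1l1, Nap1l4, Supt16 and the importin Ipo4 did not pass, with log2 fold changes from -0.06 to 0.07.

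Replication-independent histone genes encode the same kinds of protein outside the clusters. Of 11 genes, 10 were tested and 6 fell, beside 17.6% of all genes tested that fell. These values come from the comparison that chose the set, so they too are a description and not an independent test. The median of the 10 was -0.19 on the log2 scale, beside -0.01 over all genes tested. None rose in limma over all 6 libraries, 1 was higher at an unadjusted p under 0.05, and the same held in limma voom, where 9 were tested. The 1 was H2afj, an H2A variant gene, with a log2 fold change of 0.24 ± 0.09 (SE). It was called higher without siNC replicate 2 (adjusted p = 0.00641, limma) and in no other of its 13 fits. H2afz, which encodes H2A.Z, was at 95.3, 112 and 108 FPKM in siNC and at 73.9, 72.5 and 78.9 FPKM in siSox9. This was -0.48 ± 0.06 on the log2 scale (SE, adjusted p = 0.00191, limma). H2afv, its paralog, fell by 0.44. H2afy2, a macroH2A gene, and Cenpa, the centromeric H3, fell by 0.58 and 0.60. H1f0, the linker histone of resting cells, fell by 0.23. H3f3b, an H3.3 gene and the most abundant gene of this list, was at 191, 202 and 199 FPKM in siNC and at 179, 179 and 184 FPKM in siSox9 and fell by 0.13. That call held in 7 of 14 fits (adjusted p from 0.00737 to 0.109, limma) and was lost without siNC replicate 2 or 3 and without siSox9 replicate 1 or 2. The summed level of the 11 genes was 426 ± 17.9 FPKM in siNC and 362 ± 4.85 FPKM in siSox9, a ratio of 0.850, beside 1.39 for the 57 clustered genes.

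**Figure D4:**
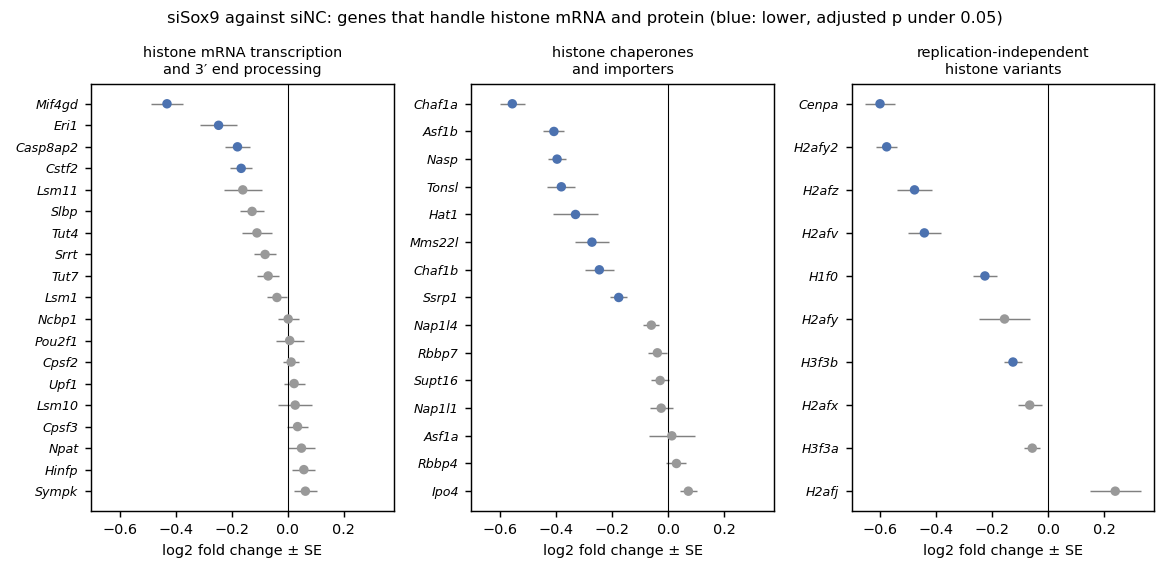
Log2 fold change of siSox9 against siNC with its SE (limma on log2(FPKM + 1)) for the tested genes of 3 lists, with blue points for genes with an adjusted p under 0.05 and grey points for the rest. All blue points lie below 0: 4 of 19 for transcription and 3′ end processing, 8 of 15 for chaperones and importers and 6 of 10 for replication-independent variants.

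Division genes were part of the reason the set was chosen, so their values stand here as a description. All 20 genes of an S phase list and all 15 of a mitosis list had lower means in siSox9, with median log2 fold changes of -0.35 and -0.65. Pcna, the clamp of the replication fork, was at 50.8, 55.1 and 53.2 FPKM in siNC and at 40.0, 39.8 and 44.2 FPKM in siSox9. Rrm2, a subunit of the enzyme that makes deoxynucleotides, was at 47.9, 48.9 and 51.6 FPKM in siNC and at 23.1, 20.96 and 24.0 FPKM in siSox9. Mcm2, a subunit of the replicative helicase, had a log2 fold change of -0.37, and the cyclin genes Ccne1 and Ccna2 had -0.64 and -0.75. Among mitosis genes, Mki67, Top2a and Ccnb1 had log2 fold changes of -0.78, -0.71 and -0.63. Hist1h3b and Hist1h2ab thus had siSox9 means of more than 2 times their siNC means in the same libraries in which the siSox9 mean of Rrm2 was under its lowest siNC value.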

How the data were processed

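The deposited table held FPKM values, computed by the authors per library, with gene position and biotype. The submitters' processing notes name Bowtie2 2.2.3, HISAT2 2.1.0, TopHat2 and the build mm9, but 93.3% of the genes found in GENCODE M21 have the same position there as in the table, so positions are given on GRCm38. Each FPKM value was multiplied by exon length and by a read total per library that was fitted to make the products whole. This gave whole reads (within 0.02 of a read) for 93.3% to 93.4% of values, with values of 0 counted as whole. The fitted total is the depth given here. No 2 libraries agreed within sampling noise. The 12009 genes that averaged 1 FPKM or more over the 6 libraries were tested with limma 3.58.1 (R 4.3.3) on log2(FPKM + 1), unpaired, with the Benjamini-Hochberg adjustment at 0.05. The pseudocount of 1 shrinks fold changes of low genes. On simulated data for this comparison (11998 genes), 72 of 100 genes changed by 0.5 on the log2 scale and 97 of 100 changed by 1 were called. The alternatives were a pseudocount of 0.1, median-centred values, TPM, an unfiltered table, a stricter minimum (5 FPKM), a replicate block, limma voom on recovered reads of the genes whole in every library, and each library left out. Sequence was taken from GENCODE M21 transcripts and RefSeq promoters.

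The members and gene lists were chosen with earlier results of these data known. Named genes were Sox9, every member averaging 1 FPKM or more and the 3 nearest below it, the genes called in the lists on histone mRNA, chaperones and variants, 3 fixed genes in each of the first 2 of these (Slbp, Npat and Casp8ap2, and Nasp, Asf1b and Chaf1a), and 8 fixed division genes. The other genes named in the report were picked after their values were seen.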

Additional observations from a re-analysis of the deposited data

How the results depend on the processing

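The direction of the summed histone level and of the median member held under every alternative run. The ratio of summed FPKM was 1.42 as TPM and 1.42 with libraries divided by their median gene. Over members sharing under 50% of their transcript, an alternative chosen after seeing the data, it was 1.30 and the median log2 fold change was 0.30. There 4 of the 12 members tested were called higher, beside 7 of 20 in the report and 12.8% of all genes tested. Without Hist1h1c and Hist1h2bc, also chosen after seeing the data, the ratio was 1.62. The median log2 fold change of members, 0.39 in the report, was 0.51 as TPM, 0.52 with a pseudocount of 0.1, 0.54 in limma voom, 0.61 with a minimum of 5 FPKM and 0.16 with no filter, where 5, 57 and 20 members were tested at the minimum of 5 FPKM, with no filter and in the rest. The number of members called lower was 0 in limma voom, with no filter and with a minimum of 5 FPKM, against 1, 1 and 0 at an unadjusted p under 0.05, and the minimum removed the gene called. Called genes of histone mRNA processing were 2 as TPM, 2 with no filter and 2 with a minimum of 5 FPKM, and called chaperones were 5 in limma voom, where 10 of the 15 were tested. The TATA letters were in 28.8% of member promoters and the octamer in 7.69% when only the 100 bases before the start were searched. The cause of the remaining differences was not tested.

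Leaving out each library in turn gave 2424 (without siSox9 replicate 2) to 3654 genes called in all, 5 to 9 members called higher, 0 to 1 called lower (limma, 1 at an unadjusted p under 0.05 each time), a median of 0.32 to 0.39, a ratio of 1.36 to 1.43, and 1 to 5 processing, 6 to 8 chaperone, 5 to 7 variant (1 of the 6 called without siNC replicate 2 was higher), 16 to 19 S phase and 15 mitosis genes called. In those fits 944 to 1565 of the 12009 genes tested were called higher and 1480 to 2089 lower, and nothing is read from the member counts. In limma voom 3712 of 10478 genes were called.

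The groups share replicate numbers, but the deviations of same-numbered libraries correlated at only 0.06, -0.05 and 0.01, so the numbers were not taken to pair the libraries. With the replicate block, 3262 genes were called in all, 1373 higher and 1889 lower of the 12009 tested. They included 8 members higher and 1 lower, 4 processing, 8 chaperone, 6 variant, 18 S phase and 15 mitosis genes.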

Other observations

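The table also held 2 histone rows outside the protein-coding set. Hist3h2bb-ps, a processed pseudogene of the chromosome 11 cluster, was at 0 to 0.267 FPKM in the 6 libraries, with group means of 0.147 FPKM in siNC and 0.0861 FPKM in siSox9, on at most 3 reads per library. The pseudogene Hist1h2aj was listed at 0 in all 6.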
